A study of Homo sapiens with 6 samples.

Results

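The DNAJ genes encode J-domain proteins, the cochaperones that bring HSP70 chaperones their clients and speed up the hydrolysis of ATP by HSP70. They were taken from a table of 26364 genes as every row whose symbol is DNAJA, DNAJB or DNAJC followed by a number, with no filter on expression, which gave 43 genes. These comprised 4 genes of class A, 13 of class B and 26 of class C. RNA had been sequenced from MV4-11 cells, an established human acute myeloid leukaemia line whose FLT3 gene carries an internal tandem duplication, so that all libraries share it. With treatment, 3 libraries came from cells given 22d, known as an inhibitor of the deacetylase HDAC8, at 10 nM for 18 hours. The comparison arm held 3 libraries from cells given the vehicle DMSO for 18 hours. The comparison asks which transcripts differ after 22d. Whether each library had a culture of its own is not stated in the labels. The p-values thus cover the spread between these 6 libraries alone, which may be technical, in a single cell line.

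The J domain carries a run of histidine, proline and aspartate that stimulates HSP70. Class A proteins resemble bacterial DnaJ, with a glycine- and phenylalanine-rich stretch and a zinc-binding region after the J domain. Class B proteins lack the zinc-binding region, and class C holds all other J-domain proteins, many tied to 1 place or task in the cell. HSP70, its J-domain partners and the nucleotide exchange factors that reset it fold new proteins, take apart aggregates and pass clients on to HSP90.

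The symbol-based classes were checked on the coding sequence of 1 GENCODE release 29 transcript for each gene (GRCh38), which 42 of the 43 genes had. The codons of the run (CAC or CAT, then CCN, then GAC or GAT) stood in frame exactly once in 41 of these 42 genes, starting with CAC in 25 genes and with CAT in 16. The exception was DNAJB13, which has none. The first codon of the run lay between codons 31 and 1332, and within the first 100 codons in 27 genes. The codon pattern of the zinc-binding repeat (cysteine, 2 codons, cysteine, 1 codon, glycine, 1 codon, glycine) occurred 4 times in DNAJA3 and 3 times in each of DNAJA1, DNAJA2 and DNAJA4. It did not occur in any of 12 class B or 26 class C genes with a coding transcript. The stretches below, 45 bases with the run in capitals, come from members that fell or rose most plainly in each class and from DNAJB1, the gene for which class B is best known.
DNAJA1: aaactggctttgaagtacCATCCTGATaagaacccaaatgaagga
DNAJA3: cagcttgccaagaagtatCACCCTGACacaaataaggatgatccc
DNAJA4: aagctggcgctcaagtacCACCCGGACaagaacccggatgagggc
DNAJB1: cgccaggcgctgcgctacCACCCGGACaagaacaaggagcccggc
DNAJB2: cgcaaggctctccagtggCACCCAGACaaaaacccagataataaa
DNAJC9: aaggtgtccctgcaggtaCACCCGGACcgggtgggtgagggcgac
DNAJC11: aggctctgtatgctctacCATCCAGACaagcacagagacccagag
DNAJC4: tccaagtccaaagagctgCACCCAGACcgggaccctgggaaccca

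The deposited values are normalized counts, that is, read counts divided by 1 size factor per library. Libraries held 20070076 to 23749257 reads in genes with 22d and 19995430 to 23353064 with DMSO. With 22d, 16807, 17055 and 19285 genes had reads, the last in replicate 3, against 16268 to 16439 with DMSO. Markers of the line were present, with means of 2262 (22d) and 2105 (DMSO) normalized counts for CD33 and 6703 (22d) and 5009 (DMSO) for FLT3. Of 10 myeloid marker genes, 3 were called higher (FLT3, CSF1R and ITGAM), 1 lower (MPO), 5 did not pass and CD14 was not tested. Means were 2846 (22d) and 1651 (DMSO) normalized counts for CSF1R, 135 (22d) and 77.0 (DMSO) for ITGAM, and 65.6 (22d) and 400.0 (DMSO) for MPO. Their part in the results was not tested. The T cell gene CD3E held at most 1.68 normalized counts in any library and the monocyte gene CD14 at most 10.3. Genes averaging 10 or more normalized counts over the 6 libraries were tested with limma on log2(value + 1), so fold changes are on that scale and the change of low genes is understated.

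Of the 43 DNAJ genes, 38 passed the filter and 5 were not tested. With 22d, 13 of the 38 rose and 11 fell at a limma adjusted p under 0.05 over all genes, and 14 did not pass. Over all 13297 genes tested, 58.0% were called, 28.5% as higher and 29.6% as lower. The share of DNAJ genes called, 63.2%, was near that background. The median log2 fold change of the tested DNAJ genes was 0.15, against 0.01 over all genes tested, and single DNAJ genes ran from -1.74 to 2.44. Changes of at least 2-fold were called for 7 DNAJ genes, 4 higher and 3 lower, where the background was 19.8%. The 4, and the 13 rises, include DNAJC28, which passed the filter only through its 22d libraries (DMSO mean 5.88). Both group means reached 10 normalized counts for 37 of the 38 genes. The 22d and DMSO libraries did not overlap for 28 of the 38 genes, or 73.7%, where 65.4% of all tested genes were so separated. When libraries were scaled by their totals, the median of all genes moved to 0.22 and 19 DNAJ genes were called higher and 9 lower, so the balance between rises and falls depends on the scaling. None of the 24 called genes changed sign under any of 16 other settings. On recovered whole reads, edgeR also called 13 DNAJ genes higher and 11 lower, with 58.1% of all genes called, and the authors' deposited table gave 13 and 11, with 55.1% of all genes called. In bulk RNA, fewer cells of a kind and less RNA per cell cannot be told apart.

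**Figure D1:**
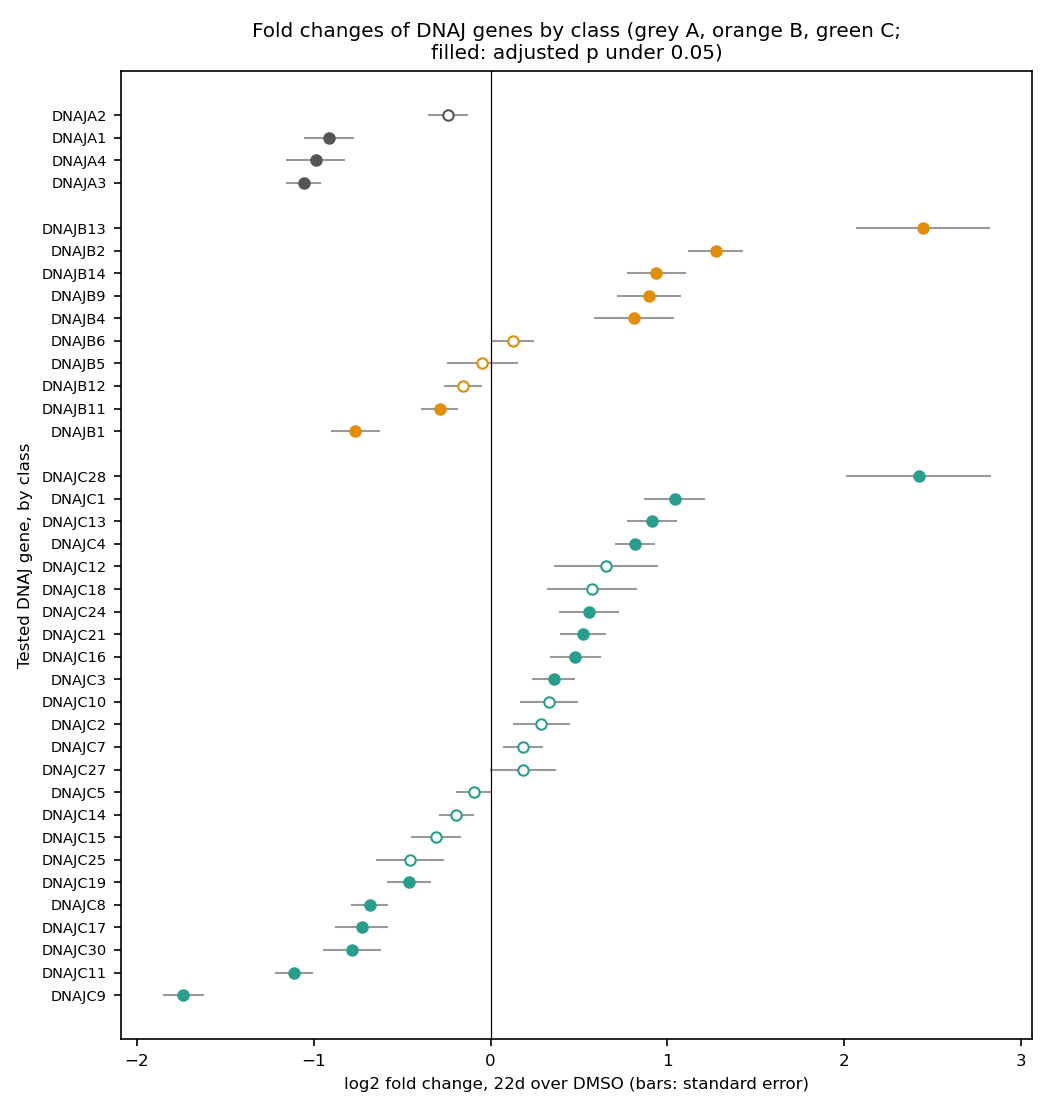
Log2 fold change of 22d over DMSO (horizontal axis, bars are standard errors) for the 38 tested DNAJ genes, in order of size within each class. Filled points passed limma's test; class A lies wholly below 0, while classes B and C hold points on both sides, from -1.74 for DNAJC9 to 2.44 for DNAJB13.

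Class A, whose members are general partners of HSP70, was lower with 22d in 3 of 4 genes, and 0 rose, also at an unadjusted limma p under 0.05 and by edgeR. The median of the 4 was -0.95. Over all genes tested, 29.6% were called lower and 28.5% higher, and the difference between the classes was not tested. DNAJA1, a farnesylated cytosolic cochaperone (chromosome 9, 33025211 to 33039907), had 1278, 1506 and 1207 normalized counts with 22d, against 3126, 2229 and 2239 with DMSO. The groups did not overlap, and DMSO replicate 1 stood above the other two DMSO libraries. The log2 fold change was -0.92 (SE 0.14, limma adjusted p = 0.00012), and it lay between -1.01 and -0.75 with 1 library left out.

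DNAJA3, the mitochondrial member of the class (chromosome 16, 4425805 to 4456775), had 1620, 1549 and 1627 normalized counts with 22d, against 3492, 3267 and 3226 with DMSO. Libraries of each group lay close together and the groups did not overlap. Its log2 fold change was -1.06 (SE 0.10, limma adjusted p = 1.8e-06). DNAJA4, a close relative of DNAJA1, had 334, 358 and 346 normalized counts with 22d, against 924, 616 and 572 with DMSO. Its DMSO values were again uneven, highest in replicate 1, and all lay above the 22d values. The log2 fold change was -0.99 (SE 0.17, limma adjusted p = 0.00022) and it stayed called at -0.78 without DMSO replicate 1.

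DNAJA2, the other cytosolic class A gene, had 1527, 1290 and 1265 normalized counts with 22d, against 1602, 1506 and 1713 with DMSO. The groups overlapped, since 22d replicate 1 lay above DMSO replicate 2. The log2 fold change was -0.24 (SE 0.11, limma adjusted p = 0.081), and without 22d replicate 1 the gene passed at -0.33 (adjusted p = 0.018).

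**Figure D2:**
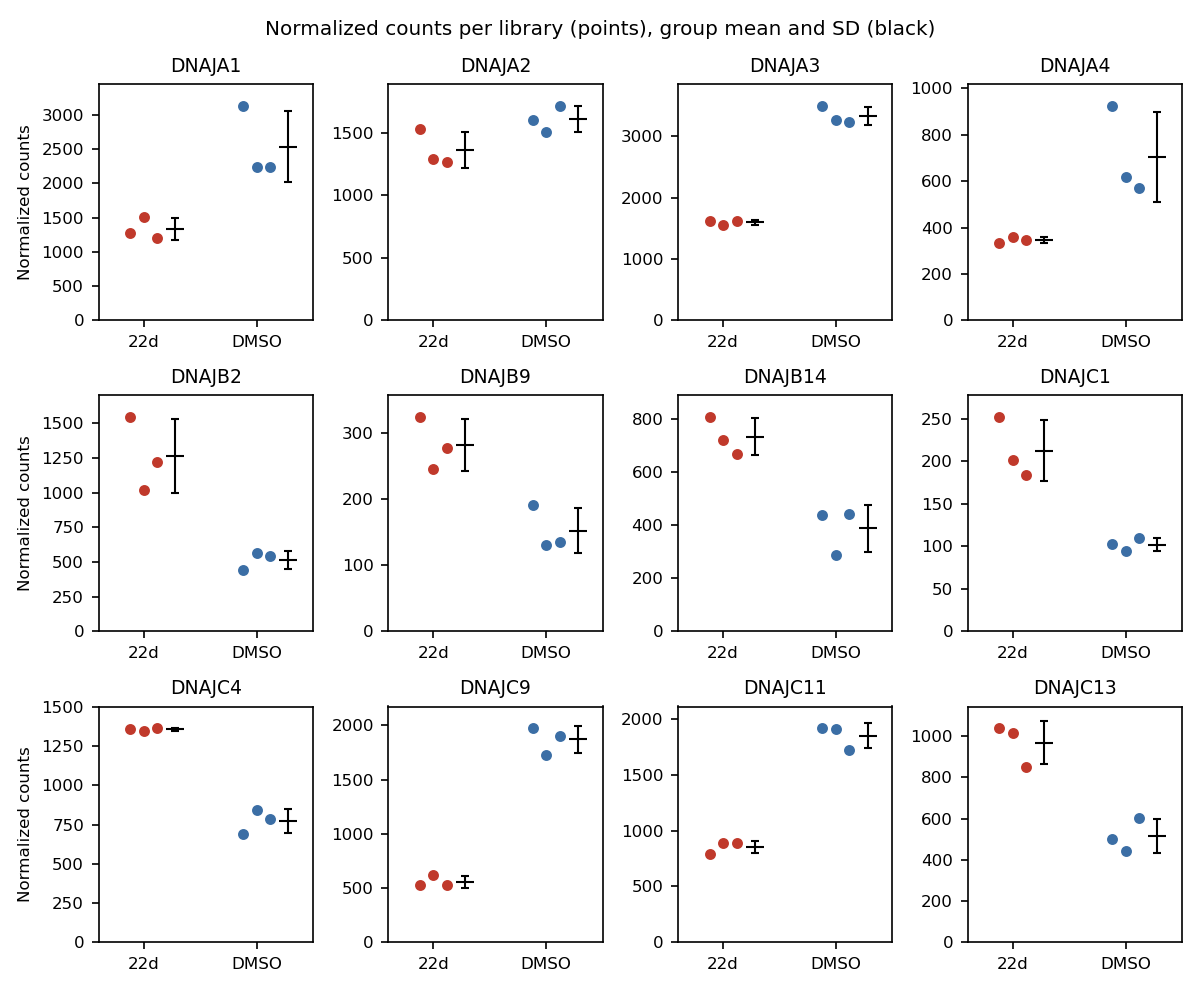
Normalized counts in each library (coloured points) with group mean and SD (black) for the 4 class A genes and 8 genes of classes B and C that changed by at least 0.8 on the log2 scale with a mean of at least 100; axes start at 0 and differ between panels. Groups overlap for DNAJA2 and are apart in the other 11 panels.

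Class B was split, with 5 of 10 tested genes called higher, 2 called lower and 3 not called, and a median log2 fold change of 0.47. The shares over all genes tested were 28.5% higher and 29.6% lower. DNAJB2, a cochaperone that binds ubiquitin on clients and is best known from neurons (chromosome 2, 219279267 to 219286900), had 1545, 1020 and 1223 normalized counts with 22d, against 444, 564 and 544 with DMSO. Every 22d library lay well above every DMSO library, with 22d replicate 1 highest. Its log2 fold change was 1.27 (SE 0.15, limma adjusted p = 1.6e-05), a 2.42-fold rise.

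Of the class B genes that act at the endoplasmic reticulum, DNAJB9 encodes a lumenal cochaperone of protein degradation and had 325, 245 and 277 normalized counts with 22d, against 191, 130 and 136 with DMSO. The groups were apart, with replicate 1 highest in each, and the log2 fold change was 0.90 (SE 0.18, limma adjusted p = 0.00092). In GENCODE, 3.49% of the exon length of DNAJB9 lies opposite PNPLA8 and 6.45% opposite THAP5. PNPLA8 averaged 405 normalized counts with 22d and 132 with DMSO, and THAP5 219 (22d) and 155 (DMSO). Their part in the DNAJB9 counts was not tested. DNAJB14, which encodes a membrane-anchored relative of DNAJB9, had 809, 724 and 670 normalized counts with 22d, against 438, 288 and 442 with DMSO. All 22d values exceeded all DMSO values, and the log2 fold change was 0.94 (SE 0.17, limma adjusted p = 0.00034). DNAJB12, its nearest relative, stood at -0.16 on the log2 scale and was not called (limma adjusted p = 0.22). DNAJB11, a lumenal partner of the HSP70 protein BiP, was called lower at -0.29 (limma adjusted p = 0.029). DNAJB11 did not pass without 22d replicate 2 (-0.31, adjusted p = 0.060), without 22d replicate 3 (-0.28, adjusted p = 0.078) and without DMSO replicate 1 (-0.23, adjusted p = 0.14). Nor did it pass with library total scaling (-0.07, adjusted p = 0.61), with quantile normalization (-0.14, adjusted p = 0.24) and with the replicate number as a block (-0.29, adjusted p = 0.075).

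DNAJB1, the classical heat-inducible HSP40 of the cytosol, averaged 2203 ± 247 normalized counts over the 22d libraries, against 3768 ± 663 over the DMSO libraries (SD, n = 3 each). The groups did not overlap, and the log2 fold change was -0.76 (SE 0.14, limma adjusted p = 0.00035). DNAJB4, its cytosolic relative, was called higher at 0.81 on the log2 scale (limma adjusted p = 0.0077), on means of 115 normalized counts with 22d and 64.5 with DMSO. DNAJB5, a further relative, had -0.05 and DNAJB6, a suppressor of protein aggregation, had 0.12, and neither passed (limma adjusted p = 0.86 and 0.40). DNAJB13, known from the axonemes of sperm and cilia, rested on few reads, with 121, 87.6 and 71.4 normalized counts with 22d against 10.2, 32.1 and 12.1 with DMSO. Its groups were apart and its log2 fold change was 2.44 (SE 0.38, limma adjusted p = 0.00012), while the authors' deposited table gave 2.10. In GENCODE, 23.0% of its exon length lies opposite an unnamed antisense gene.

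Class C, the largest class, had 8 of 24 tested genes called higher, 6 called lower and 10 not called, with a median log2 fold change of 0.24. Beside these stand 28.5% higher and 29.6% lower over all genes tested. The 8 include DNAJC28, which passed the filter through its 22d values. DNAJC9, a chaperone of histones H3 and H4 (chromosome 10, 73183362 to 73248862), had 529, 623 and 528 normalized counts with 22d, against 1976, 1730 and 1904 with DMSO. No member fell further: the log2 fold change was -1.74 (SE 0.12, limma adjusted p = 1.5e-07), and it lay between -1.82 and -1.70 with 1 library left out. The splicing-related members fell less, DNAJC8 by 0.68 and DNAJC17 by 0.73 on the log2 scale (limma adjusted p = 8.9e-05 and 0.0010). In GENCODE, 24.0% of the exon length of DNAJC9 lies opposite exons of FAM149B1, which averaged 281 normalized counts with 22d and 169 with DMSO. Likewise, 20.4% of the exon length of DNAJC17 lies opposite GCHFR, which averaged 307 (22d) and 570 (DMSO) normalized counts. The strand setting of the counting is not given in the sources used here, so reads in such shared stretches cannot be told apart.

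The class C members placed here in mitochondria were lower in 3 of 4 cases and 0 rose. That count leaves out class C genes that were not placed, among them DNAJC4 and DNAJC28, which were called higher. Over all genes tested, 29.6% were called lower and 28.5% higher. DNAJC11, which is tied to the structure of the mitochondrial inner membrane (chromosome 1, 6634168 to 6701924), had 794, 886 and 884 normalized counts with 22d, against 1916, 1905 and 1716 with DMSO. The 22d libraries lay far below the DMSO libraries relative to their spread. Its log2 fold change was -1.11 (SE 0.11, limma adjusted p = 2.7e-06). THAP3 lies opposite 27.9% of its exon length and averaged 331 normalized counts with 22d and 325 with DMSO. DNAJC30, which acts on the respiratory chain, fell by 0.78, and DNAJC19, a subunit of the import motor, fell by 0.46 (limma adjusted p = 0.0012 and 0.0058). The DNAJC19 call was lost with library total scaling (-0.24, adjusted p = 0.14). DNAJC15, the close relative of DNAJC19, had -0.31 and did not pass (limma adjusted p = 0.074), although its 22d libraries all lay below its DMSO libraries.

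DNAJC13, which works on endosomal sorting (chromosome 3, 132417526 to 132539032), had 1040, 1015 and 850 normalized counts with 22d, against 500, 444 and 604 with DMSO. The log2 fold change was 0.91 (SE 0.14, limma adjusted p = 0.00011), and the groups did not overlap. DNAJC5, the vesicle protein known as cysteine string protein, stood at 4987 ± 169 normalized counts over the 22d libraries, against 5338 ± 358 over the DMSO libraries (SD, n = 3 each). Its log2 fold change of -0.10 did not pass (limma adjusted p = 0.42), and the groups overlapped.

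DNAJC4 (chromosome 11, 64230278 to 64234286) had 1356, 1345 and 1365 normalized counts with 22d, against 687, 841 and 785 with DMSO. The 22d libraries were nearly level, and the log2 fold change was 0.82 (SE 0.11, limma adjusted p = 4.8e-05). In GENCODE, 10.6% of its exon length is shared with NUDT22 on the same strand. DNAJC1, which encodes a membrane protein of the endoplasmic reticulum, had 252, 202 and 184 normalized counts with 22d, against 102, 94.1 and 110 with DMSO. All 22d values were higher, and the log2 fold change was 1.04 (SE 0.17, limma adjusted p = 0.00022). DNAJC28 had few reads and passed the filter through its 22d values, at 43.0, 26.5 and 34.4 normalized counts with 22d against 7.97, 3.10 and 6.58 with DMSO. It was called higher at 2.42 (SE 0.41, limma adjusted p = 0.00023), while the authors' deposited table gave 2.06.

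Smaller rises in class C were those of DNAJC21, a factor of large ribosomal subunit maturation (0.52), and of DNAJC24, an enzyme partner in diphthamide synthesis (0.56). DNAJC3 and DNAJC16, both of the endoplasmic reticulum, rose by 0.36 and 0.48. The limma adjusted p-values of DNAJC21, DNAJC24, DNAJC3 and DNAJC16 were 0.0038, 0.012, 0.025 and 0.012. The DNAJC3 call was lost without 22d replicate 1 (adjusted p = 0.069) and without DMSO replicate 2 (0.10), the DNAJC16 call without DMSO replicate 2 (0.050), and the DNAJC24 call without DMSO replicate 1 (0.065). The 14 members that did not pass had log2 fold changes between -0.46 for DNAJC25 and 0.65 for DNAJC12, and the groups were apart for 4 of them. Among them were DNAJC7, a cochaperone of both HSP70 and HSP90, at 0.18 and DNAJC2, the ribosome-associated member, at 0.29.

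**Figure D3:**
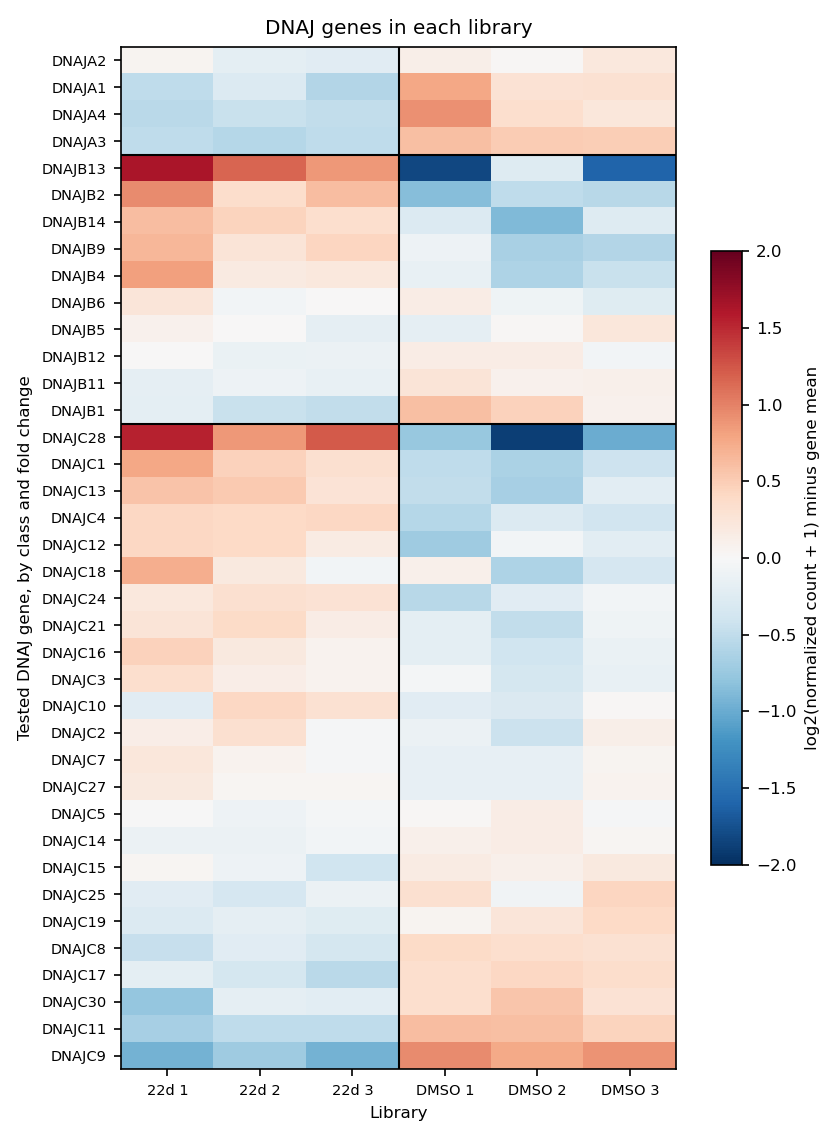
Each row is a tested DNAJ gene, ordered by class and fold change, and each column a library; colour is log2(normalized count + 1) minus the mean of that gene over the 6 libraries. The 22d and DMSO libraries do not overlap for 28 of the 38 genes, among them all 24 called, where 65.4% of all genes tested were so separated. DNAJC28 is among the called genes although it passed the filter on low values only through its 22d libraries.

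Libraries of a group were not equal across the family. Of the 13 genes that rose, 10 had their highest 22d value in 22d replicate 1. Of the 11 genes that fell, 8 had their highest DMSO value in DMSO replicate 1, and 8 had their highest 22d value in 22d replicate 2. Such counts were not made over all genes tested, so whether they are particular to the DNAJ genes is not known. With 1 library left out, 11 to 14 members were called higher and 10 to 13 lower, against 13 and 11 in all 6 libraries. The lowest count of rises, 11, came without DMSO replicate 2, and the highest count of falls, 13, without 22d replicate 1.

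Set out by the place of the protein, the members moved in different directions, and the groups were drawn up with earlier results of these data known. Of 5 members placed in mitochondria, 4 fell and 0 rose, with a median of -0.78, and DNAJC15 did not pass. All 3 splicing or histone members fell, with a median of -0.73. Of 10 members of the endoplasmic reticulum, 5 rose (DNAJB9, DNAJB14, DNAJC1, DNAJC3 and DNAJC16), DNAJB11 fell and 4 did not pass, with a median of 0.42. The 9 general members of cytosol and nucleus split into 2 that rose (DNAJB2 and DNAJB4), 3 that fell (DNAJA1, DNAJA4 and DNAJB1) and 4 that did not pass, with a median of -0.05. Of 3 members tied to ribosomes, translation or diphthamide, 2 rose and DNAJC2 did not pass. Of 2 tested vesicle or endosome members, DNAJC13 rose and DNAJC5 did not pass. A further 10 members were not placed. Of the 6 tested among them, 3 rose (DNAJB13, DNAJC4 and DNAJC28), 0 fell and 3 did not pass. Their median was 0.74, and the counts by place leave them out. Members not placed here may still belong to one of the places named, so these counts hold for the placed members alone. These counts stand beside the background of 28.5% higher and 29.6% lower, and the difference between the groups was not tested.

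**Figure D4:**
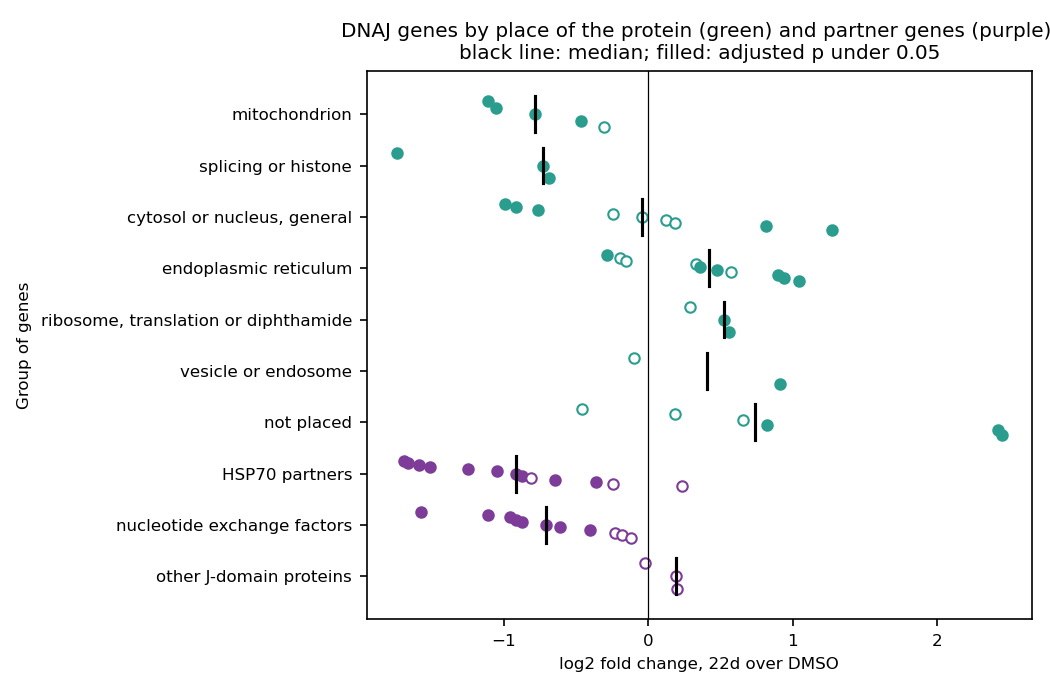
Log2 fold changes of 22d over DMSO for tested DNAJ genes by the place of their protein (green) and for genes that work with them (purple), with the median of each group as a black line and filled points past limma's test. Members placed in mitochondria and splicing or histone members lie below 0 and most endoplasmic reticulum members above it. Members not placed, DNAJC4 and DNAJC28 among them, have a row of their own. HSP70 and exchange factor genes lie mostly below 0.

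The genes that work with J-domain proteins were mostly lower with 22d. Of 13 tested genes with the symbol HSPA, here called HSP70 genes whatever their role, 10 fell, 0 rose and 3 were not called. Their median log2 fold change was -0.92, where 29.6% of all tested genes were called lower and 28.5% higher. HSPA4, among the 10 at -0.37 (limma adjusted p = 0.016), kept its call in 11 of 16 other settings. HSPA8, the constitutive cytosolic HSP70 and main partner of the class A proteins, averaged 8852 ± 1675 normalized counts over the 22d libraries, against 28772 ± 7480 over the DMSO libraries (SD, n = 3 each). Its log2 fold change was -1.69 (SE 0.17, limma adjusted p = 3.6e-06). HSPA9, the mitochondrial HSP70 that DNAJA3 serves, fell by 0.92, and HSPA5, the BiP of the endoplasmic reticulum, fell by 0.65. HSPA1A and HSPA1B were also called lower, but they are near-identical copies. How the counting treated reads that match both, which it could leave out, is not given in the sources used here.

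Of 11 nucleotide exchange factors, 8 fell, 0 rose and 3 did not pass, with a median of -0.71, beside the same background of 29.6% lower and 28.5% higher. BAG5, among the 8 at -0.40 (limma adjusted p = 0.011), kept its call in 14 of 16 other settings. The counts of 0 rises among HSP70 genes and exchange factors were also 0 at an unadjusted limma p under 0.05 and by edgeR. No exchange factor was called higher under any of the 16 alternatives. Among HSP70 genes, HSPA13 was called higher with library total scaling (0.45, limma adjusted p = 0.013) and HSPA12A, under the filter otherwise, with no filter (1.87, limma adjusted p = 0.022). HSPBP1, an exchange factor of cytosolic HSP70, had the lowest log2 fold change of these, -1.58. Mitochondrial GRPEL1 fell by 0.71, whereas BAG3 and the endoplasmic reticulum factor SIL1 did not pass at -0.23 and -0.12. The J-domain genes HSCB, SEC63 and GAK, which carry other symbols, gave 0 calls by limma, by edgeR and by DESeq2 and 0 at an unadjusted limma p under 0.05, with log2 fold changes between -0.02 and 0.20. With other scalings some were called higher, HSCB and SEC63 with library totals (0.42 and 0.41) and SEC63 and GAK with quantile normalization (0.38 and 0.28). The heat shock factor genes HSF1 and HSF2 had -0.04 and 0.08 and did not pass either.

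Levels were compared between genes as normalized counts per kilobase of exon, with lengths from the union of GENCODE exons. With DMSO the 4 members at the top were DNAJC8 at 1112 ± 27.5, DNAJB1 at 1026 ± 181, DNAJC5 at 1010 ± 67.8 and DNAJA1 at 927 ± 189 (SD, n = 3 each), and each of these differed from the next by less than the larger of their SDs. With 22d the order was DNAJC5 at 943 ± 32.1, DNAJC8 at 693 ± 56.4, DNAJB1 at 600 ± 67.3 and DNAJA1 at 487 ± 57.2 (SD, n = 3 each), with DNAJC4 next at 483 ± 3.52. Here each differed from the next by more than either SD, except DNAJA1 and DNAJC4. DNAJC9 stood in place 17 with 22d and in place 5 with DMSO among the 43 genes. DNAJC4 stood in place 5 with 22d and in place 12 with DMSO.

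Summed per kilobase, class A held 1049, 1080 and 974 normalized counts per kilobase with 22d, against 2095, 1669 and 1701 with DMSO. Class B held 1955, 1644 and 1666 with 22d, against 2239, 2060 and 1762 with DMSO, so its groups overlapped. Class C held 3995, 4075 and 3951 with 22d, against 4801, 4851 and 4776 with DMSO. These sums keep the deposited scaling. Size factors were 1.02 to 1.19 with 22d and 0.879 to 0.967 with DMSO, while reads in genes overlapped between the groups. Summed normalized counts therefore run lower with 22d in general, and whether the class sums fall beyond this was not tested. Class A accounted for 15.2% of the summed level with 22d and 21.1% with DMSO. In class C the sum was lower with 22d while 8 members rose and 6 fell; DNAJC8, highest of all members with DMSO, was among those that fell.

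**Figure D5:**
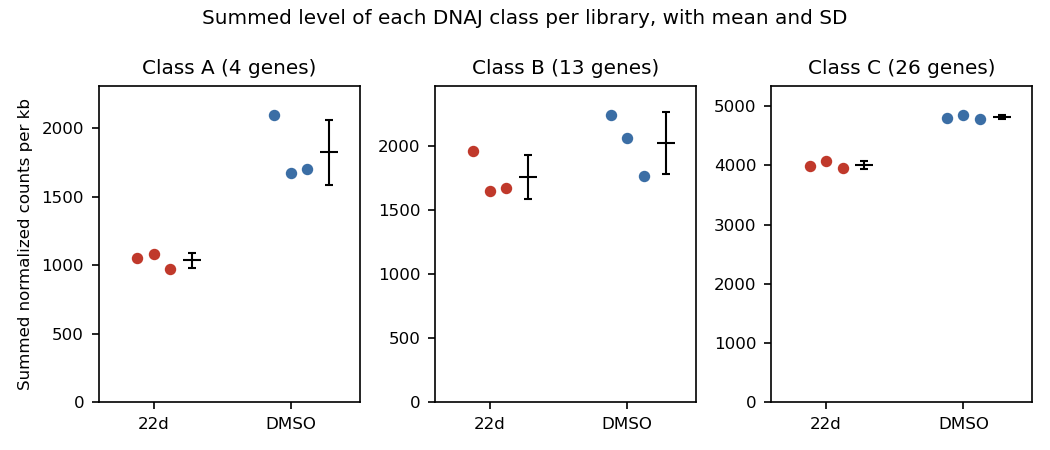
Summed normalized counts per kilobase of exon for the 4, 13 and 26 genes of classes A, B and C in each library (points) with group mean and SD (black); axes start at 0. The 22d libraries lie below the DMSO libraries for classes A and C and overlap with them for class B. The sums keep the deposited scaling, under which summed normalized counts run lower with 22d in general.

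DNAJB3, DNAJB7, DNAJB8, DNAJC6 and DNAJC22 were not tested. DNAJB3 had no reads in any library, which allows up to 3 reads, or 2.52 to 3.41 normalized counts, per library. The others held 0 to 6 reads per library, and DNAJC6, the auxilin of clathrin uncoating in neurons, had means of 1.77 normalized counts with 22d and 2.52 with DMSO. No difference was detectable at this depth.

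Promoters of 39 members, 51 in all, were found in RefSeq (GRCh38.p14, 250 bases before to 50 after each start), and both strands were searched. A member was counted when any of its promoters held a motif, whereas the shares over all promoters count single promoters, so the figures are unlike. A heat shock element of 3 units (GAA, 2 bases, TTC, 2 bases and GAA, or TTC, 2 bases, GAA, 2 bases and TTC) stood in 2 members, DNAJA1 and DNAJB6, and in 0.490% of 35116 promoters of the same length. In DNAJA1 it begins 3 bases after the annotated start. An E-box (CACGTG) stood in DNAJB9, DNAJC8, DNAJC12 and DNAJC16, and in 7.26% of all promoters. An E2F form (TTTGGCGC, TTTCCCGC, TTTGGCGG or their complements) stood in DNAJC6, DNAJC11 and DNAJC28, and in 2.89% of all promoters. The long endoplasmic reticulum stress element (CCAAT, 9 bases, CCACG) was not found in any member and stood in 0.0769% of all promoters. No match shared a base with another. Genes with a motif went in different directions: DNAJA1, DNAJC8 and DNAJC11 fell, DNAJB9, DNAJC16 and DNAJC28 were called higher, DNAJB6 and DNAJC12 did not pass and DNAJC6 was not tested. The windows below show matches in capitals in a gene that did not pass, a gene that rose and 2 genes that fell.
DNAJB6, chr7:157336853-157336905, plus strand: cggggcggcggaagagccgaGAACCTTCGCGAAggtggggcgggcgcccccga
DNAJB9, chr7:108569781-108569826, plus strand: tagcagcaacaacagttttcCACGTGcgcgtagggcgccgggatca
DNAJC8, chr1:28233030-28233070, minus strand: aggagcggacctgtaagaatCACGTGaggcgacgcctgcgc
DNAJC11, chr1:6701817-6701845, minus strand: cttgagcacggccttgccggTTTGGCGGg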

How the data were processed

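RNA of MV4-11 cells was sequenced in 6 libraries, 3 with 22d and 3 with DMSO. The submitters' processing notes list STAR, HTSeq, DESeq2, cutadapt and FastQC, and the build hg38; tool versions and the annotation release are not given in the sources used here. Per the file headers, the authors' table holds a normalized count signal per library and its mean. The deposited table also has the authors' log2 fold change and its error, the authors' test score, and the authors' p-value, raw and adjusted. Columns were matched to libraries by arm and number. Each deposited signal is a whole read count divided by a size factor per library: 100% of them gave whole reads, to within 0.001, with 1 read worth 0.839 to 1.14 normalized counts.

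The 13297 genes averaging 10 or more normalized counts were tested together with limma-trend on log2(value + 1), with Benjamini-Hochberg adjustment over all of them, and called at an adjusted p under 0.05. Recovered reads were tested with edgeR and DESeq2 as alternatives. Other alternatives were pseudocounts of 0.5 and 5, no filter, a filter of 50, scaling by library totals, quantile normalization, the authors' deposited values, a replicate block, and each library left out. The limma procedure was checked on simulated data.

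Lengths and coding sequences came from GENCODE release 29 (GRCh38) and promoters from RefSeq (GRCh38.p14). Full values are given for class A and for called members averaging 100 or more normalized counts with a log2 fold change of at least 0.8 in size; the values of DNAJB1, DNAJB13, DNAJC5, DNAJC28 and HSPA8 given with their spread were chosen after they had been seen. Members, lists and groups were chosen with earlier results of these data known. Some genes of the marker and related lists are not reported here. R 4.3.3, limma 3.58.1, edgeR 4.0.16, DESeq2 1.42.0, Python 3.11.15 and matplotlib 3.10.9 were used.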

Additional observations from a re-analysis of the deposited data

How the results depend on the processing

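Over 16 alternatives, 18 of the 24 called DNAJ genes kept their call in each, and none of the 24 changed sign. The exceptions were DNAJB11, DNAJC3, DNAJC16, DNAJC19 and DNAJC24, whose values stand beside their results, and DNAJC28, which a filter of a mean of 50 leaves out. The replicate numbers were not taken to pair the libraries. Same-numbered libraries deviated from their group means with correlations of -0.03, -0.02 and -0.10 across genes, and differently numbered ones with -0.11 to 0.17. With 3 libraries per group, these values cannot exclude a pairing. With the replicate block, DNAJC18 was gained and DNAJB11 lost, for 14 higher and 10 lower, and class B had 1 lower call, against 2.

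Scaling by library totals, whose shift of all genes is given above, raised the medians to 0.37 for all tested DNAJ genes, -0.73 for class A, 0.69 for class B and 0.46 for class C; it gave 13 higher calls in class C, against 8, 1 lower in class B, and 3 higher among HSP70, exchange factor and related genes (HSPA13, HSCB and SEC63), against 0. Of all its calls, 65.6% were higher, against 49.0% in the deposited scaling, and of its DNAJ calls 67.9% against 54.2%. Quantile normalization gave a class A median of -0.77, 1 lower call in class B and 2 higher calls among the related genes (SEC63 and GAK). With no filter, 1 related gene (HSPA12A) was called higher and the class B median was 0.21. Leaving out each library in turn gave 1 to 2 lower calls in class B and class A medians from -1.04 to -0.77. The cause of these shifts was not tested. Among these alternatives DNAJA2 passed only without 22d replicate 1 (-0.33). Depth limits the 7 tested members averaging under 100 normalized counts; over all tested members, standard errors of the log2 fold change ran from 0.10 to 0.41.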

Other observations

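Rows named after DNAJ genes but outside the rule were DNAJC5B and DNAJC5G, a readthrough gene, a pseudogene and 5 antisense genes. DNAJC5B, a relative of cysteine string protein, had 83.1, 58.4 and 35.3 normalized counts with 22d, against 12.5, 20.7 and 13.2 with DMSO, and was called higher (log2 fold change 1.82, limma adjusted p = 0.00063). DNAJC3-AS1, antisense to DNAJC3, had 69.4, 57.5 and 60.4 normalized counts with 22d, against 28.4, 34.1 and 38.4 with DMSO, and was called higher at 0.88 (limma adjusted p = 0.0065). DNAJC9-AS1 had 86.0, 36.5 and 36.9 normalized counts with 22d, against 39.8, 30.0 and 35.1 with DMSO, and did not pass (limma adjusted p = 0.22). Its exons share 182 bases with those of DNAJC9 on the other strand, where their reads cannot be told apart.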
